A study of Mus musculus with 43 samples.

Results

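Cytosolic ribosomal protein genes were followed across CD4 T cells that had met no, low, intermediate or high amounts of persisting antigen. They were chosen by symbol: every gene named Rpl or Rps with a number, plus Rplp0, Rplp1, Rplp2 and Rpsa, without pseudogene symbols and without the Rps6k kinases. A total of 69 such genes were measured among 22180 genes, each by its brightest probe set that carried a single symbol. They comprised 35 large subunit proteins, 23 small subunit proteins, 10 paralogues or variants and Rps19bp1, which is named for binding Rps19 and is no subunit. Of 89 protein-coding genes in RefSeq that match the symbol rule, 67 were measured in this way, 14 were named only by probe sets shared between symbols and 8 by neither kind. Rpl10, Rpl13a and Rpl24 were among the 14 and were not analysed here. The other 2 of the 69, Rpl6l and Rps4l, are pseudogenes in RefSeq.

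The T cells carried the AND T cell receptor transgene, which recognizes a moth cytochrome c (MCC) epitope, on a CD45.1+ Rag2 o/o background, and were transferred into recipient mice. Recipients called iMCC carried a pair of transgenes through which doxycycline switches on an invariant chain with the MCC epitope in dendritic cells. They had received an anti-CD40 antibody and 100 µg/ml doxycycline 1 day before transfer, and all groups in iMCC mice shared this start. In the off group (5 arrays, day 30 only) 100 µg/ml was kept to day 10 and stopped until day 30. In the none group doxycycline was stopped on day 3 (5 arrays on each day), the low group went on with 10 µg/ml (5 on each day) and the int group with 100 µg/ml (4 on day 10, 5 on day 30). The high group (4 arrays, day 10 only) lay in cMCC mice, another strain whose MHC-II+ cells express such a construct constitutively, without doxycycline. There the transferred cells die by day 30, per the labels, so that no later sample of it exists. Naive AND cells (5 arrays) had spent 3 days in non-transgenic mice, without doxycycline, when they were sorted. Comparisons with naive cells thus differ at once in antigen, recipient mice, doxycycline and days after transfer, which cannot be told apart. Day 30 cells came from a second series of sorts, and a difference between the days cannot be told apart from one between the series.

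RNA of 43 sorted samples was read on 43 single-colour arrays, and the values are log2 signals with array medians between 3.28 and 3.44. The correlation between any pair of arrays lay between 0.936 and 0.989. Whether the samples of a group are separate animals is not in the labels. The p-values therefore rest on the spread among the samples at hand, which may be technical, and the number of arrays limits the precision. Group means of Cd4 lay between 9.12 and 10.00, of Cd3e between 10.59 and 11.44 and of Thy1 between 10.12 and 11.20, and Rag2 did not exceed a group mean of 3.04. A total of 4 arrays had been found to stand apart in earlier work on these data, namely naive 3, naive 4, day 10 none 4 and day 10 high 2. Naive 3 and 4 gave 7.68 and 6.65 for Cd79a and 8.34 and 7.39 for Lyz2, against 3.95 to 5.00 and 2.61 to 3.47 on the other naive arrays. The array of day 10 high 2 gave 9.10 for Cd4, against 10.26, 10.28 and 10.38 on the other high arrays.

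A cytosolic ribosome is built from a small subunit, which reads the messenger, and a large subunit, which joins the amino acids, each holding ribosomal RNA and many proteins that are needed in matched amounts. Ribosomal protein messengers typically begin with a cytosine followed by a run of pyrimidines, the 5′ terminal oligopyrimidine (TOP) motif, through which mTOR signalling controls their translation. T cells that are activated enlarge and make many ribosomes, Myc being a known driver of that growth, while resting T cells keep these messengers abundant and translate them sparingly. Messenger levels, which are all that was measured here, therefore do not give ribosome number or protein synthesis.

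Promoter windows of 6 members that the results turn on show the start sites of such genes. RefSeq promoters (GRCm38.p6) were matched by symbol for 54 of the 69 members, and each window holds 80 bases before and 20 bases from the annotated start, 5′ to 3′ on the gene's strand. Capitals mark CTTTC on the printed strand only, and CCGGAA (a form of the site that ETS factors bind) or TCGCGAGA on either strand. CTTTC is a short run of pyrimidines, and a match need not lie at the first base of the messenger, where a TOP motif lies. In these windows it lies before the annotated start in Rpl13, across it in Rpl7a, and after it in Rps26 and Rpl27a. Matches of 1 motif may overlap, as in TCTCGCGAGA, but different motifs share no letters in these windows. Rpl7a is shown because it was lower with antigen on day 30, at chr2:26910727-26910826 on the plus strand.
Rpl7a: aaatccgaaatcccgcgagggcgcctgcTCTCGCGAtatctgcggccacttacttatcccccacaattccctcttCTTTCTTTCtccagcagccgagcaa
Rps19, lower in the same comparison, has 3 annotated starts, the first of them at chr7:24884512-24884611 on the plus strand.
Rps19: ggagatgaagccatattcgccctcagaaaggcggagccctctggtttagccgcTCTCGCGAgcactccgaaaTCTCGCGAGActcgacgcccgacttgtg
Rpl13 and Rps26 are shown because they were higher on day 30 than on day 10, at chr8:123102270-123102369 on the plus strand and chr10:128626487-128626586 on the minus strand.
Rpl13: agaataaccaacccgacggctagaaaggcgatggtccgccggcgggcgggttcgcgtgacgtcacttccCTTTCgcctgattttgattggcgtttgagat
Rps26: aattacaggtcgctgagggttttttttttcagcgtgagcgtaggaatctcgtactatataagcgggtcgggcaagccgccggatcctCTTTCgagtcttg
Rpl27a and Rps27l are shown as members that were higher in high than in none cells on day 10. They lie at chr7:109519115-109519214 and, for the first of 2 starts, chr9:66946006-66946105, both on the plus strand.
Rpl27a: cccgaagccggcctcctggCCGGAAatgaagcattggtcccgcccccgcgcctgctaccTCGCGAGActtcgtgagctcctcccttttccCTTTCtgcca
Rps27l: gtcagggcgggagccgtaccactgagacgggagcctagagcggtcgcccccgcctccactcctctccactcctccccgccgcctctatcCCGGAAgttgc
CTTTC lay within 40 bases on either side of a start in 22 of the 54 matched members (40.7%), against 11.9% of all 27025 genes in the table. In the whole window of 300 bases it was found in 61.1% of members and 37.9% of all genes, CCGGAA in 30 of 54 members (55.6%) and 16.7%, and TCGCGAGA in 9 of 54 (16.7%) and 1.13%. Such a match is a description of letters and not of a site in use. Among the members shown, the Rps19 and Rps27l windows hold no CTTTC, which says only that these letters are not in this window.

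The members fell into a bright and a dim set of probe sets, with a gap between them. A mean above 7 over all arrays, a limit set after the levels were seen, held 39 bright members, and 30 lay below it, 20 of them standard subunits. Just inside the limit were Rps10 at 7.90 and Rplp0 at 7.92, and just outside were Rpl22 at 6.45 and Rps19bp1 at 6.11. The brightest probe sets were those of Rplp1, Rpl41, Rps18, Rpl13 and Rps12 (12.88, 12.54, 12.52, 12.27 and 12.23) and the dimmest those of Rpl10l, Rpl32l, Rpl3l, Rps16 and Rps15 (2.50, 2.57, 2.89, 3.14 and 3.24). Signals of different probe sets are not set against each other as transcript levels. Of the dim members, 6 also had their symbol on a bright probe set that names several genes, so a dim signal here does not mean a scarce messenger.

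**Figure D1:**
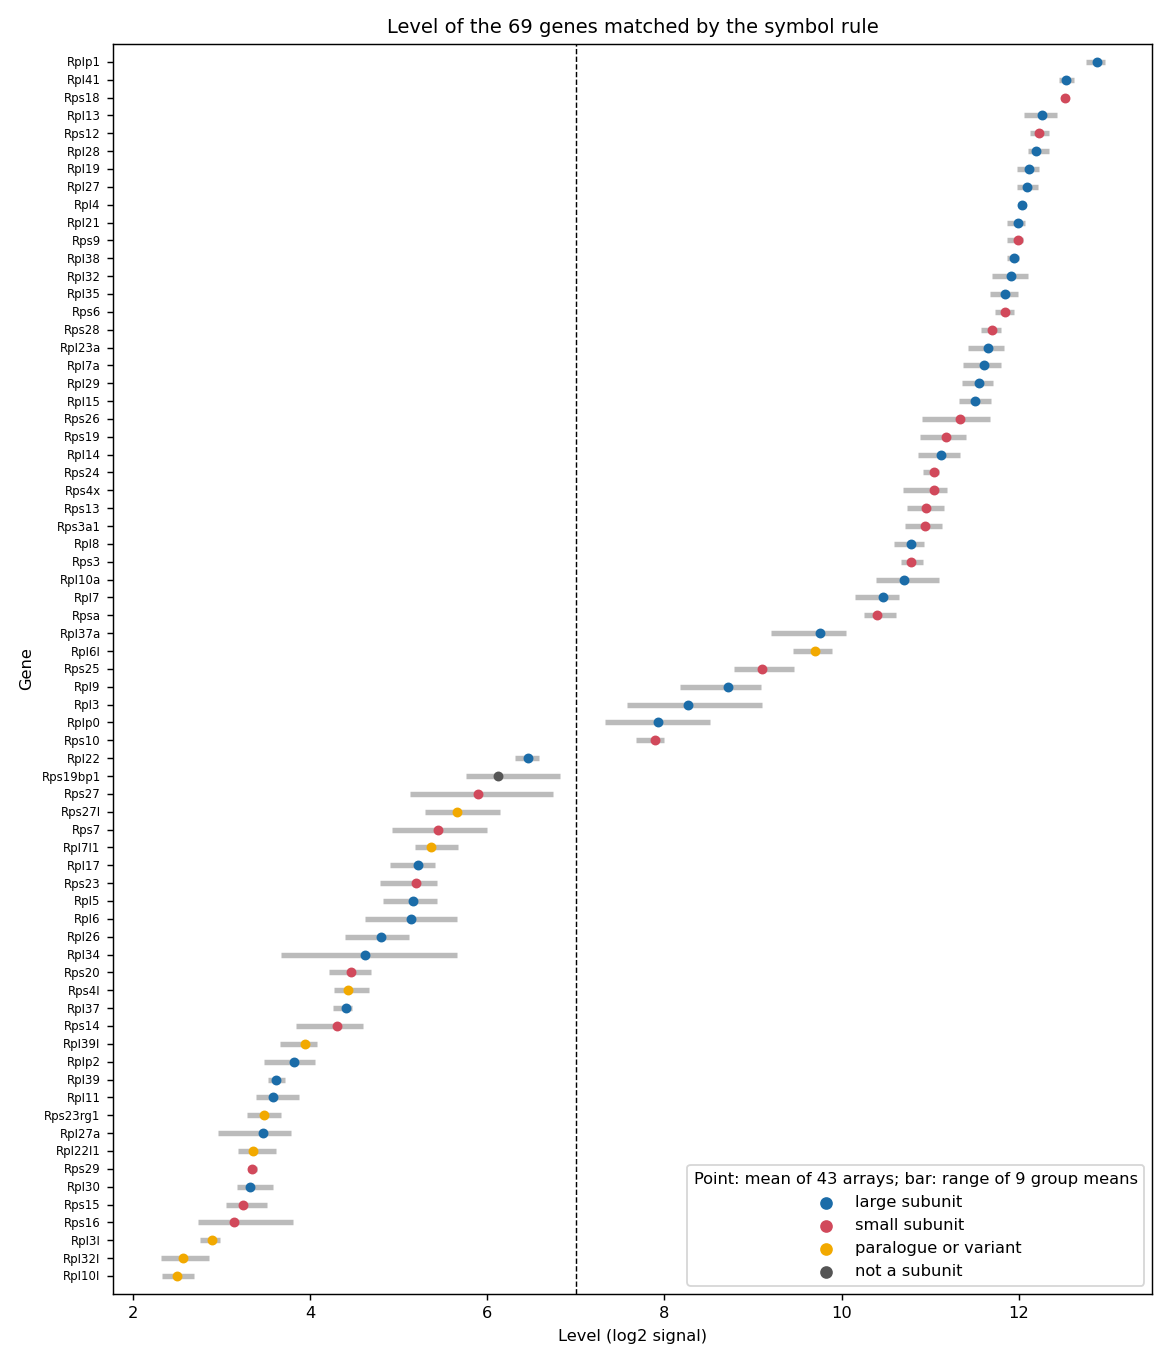
Mean log2 signal of each of the 69 members over 43 arrays (point, coloured by class) with the range of its 9 group means (grey bar). The dashed line is the limit of 7 between 39 bright and 30 dim members, and most bright members show short bars.

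Most bright members varied little between groups. The range of the 9 group means exceeded 0.5 on the log2 scale in 9 of the 39 (23.1%). It did so in 15 of the 30 dim members (50%) and in 41.7% of all genes. Among the 32 members with a mean above 10, the range of the 9 group means had a median of 0.33 on the log2 scale, against 0.44 among the 134 other genes above 10. It exceeded 0.5 in 4 of the 32 (12.5%) and in 56 of the 134 (41.8%), a difference that is described and not tested. The 2 sets are not equally bright, with a median level of 11.67 in the 32 and 10.61 in the 134. The part of level, or of saturation, in the narrower ranges was not tested. Rps18, a small subunit protein, lay between 12.48 ± 0.03 in day 30 int and 12.55 ± 0.06 in day 30 off (SD, n = 5 each). Rpl4 of the large subunit lay between 11.99 and 12.08 in its group means. The widest ranges of group means belonged to Rpl34 (1.99), Rps27 (1.61), Rpl3 (1.52), Rplp0 (1.18) and Rps7 (1.07), of which Rpl3 and Rplp0 are bright. Rpl3, which lies close to the peptidyl transferase centre of the large subunit, averaged 7.58 ± 1.73 in day 10 high cells (SD, n = 4) and 9.10 ± 0.32 in day 10 none cells (SD, n = 5). The interval of that difference was wide, -2.72 to -0.33 around -1.52, and it was not called (limma adjusted p = 0.146).

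The mean of the 39 bright members differed little between groups, and its group means lay between 10.95 and 11.18. On day 30 it was 11.12, 10.96, 11.22, 11.25 and 11.12 in off cells, 11.21, 11.26, 11.21, 11.13 and 11.09 in none cells, 11.16, 11.20, 11.19, 11.11 and 11.09 in low cells, and 11.11, 10.98, 11.11, 10.98 and 11.08 in int cells. On day 10 it was 10.88, 11.09, 10.92, 11.19 and 11.17 in none cells, 11.14, 11.22, 11.15, 11.04 and 11.01 in low cells, 10.93, 10.94, 10.93 and 11.00 in int cells, and 10.73, 11.04, 11.13 and 10.91 in high cells. Naive arrays gave 11.18, 11.18, 11.21, 11.25 and 11.10. Day 10 int arrays, at 10.93 to 11.00, lay below all arrays of day 10 low, day 30 low, day 30 none and naive cells, and overlapped those of day 10 none, day 10 high, day 30 int and day 30 off cells. The spread between arrays of a group was 0.10 (SD). The lowest of the 43 values was that of day 10 high 2, the array with the lowest Cd4 of its group. Fewer cells of a type and less RNA per cell cannot be told apart in such samples.

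**Figure D2:**
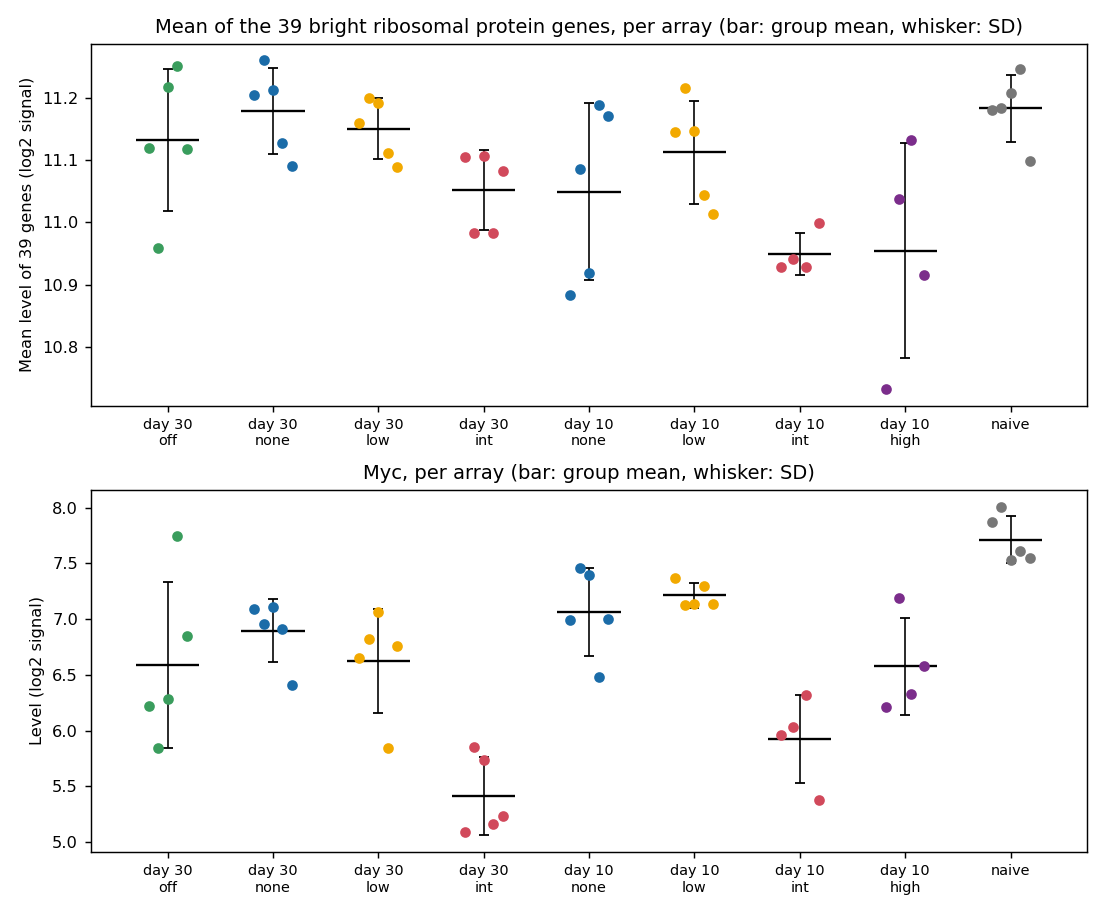
Mean log2 signal of the 39 bright members (upper panel) and log2 signal of Myc (lower panel) on each of the 43 arrays, by group, with the group mean (bar) and SD (whisker). The family mean stays between 10.73 and 11.26, while Myc is lowest in the int groups of both days.

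Which members responded to intermediate antigen was asked by setting int against none on each day. On day 30 no member rose and 3 of 69 fell (limma, p adjusted by Benjamini-Hochberg across all genes, threshold 0.05). Of all genes 2.21% were called, 1.42% as higher and 0.794% as lower. With a mean above 10, 3 of 32 members (9.38%) and 5 of 134 other genes (3.73%) were called. All 3 were bright: Rps19, Rpl7a and Rps12. At an unadjusted p under 0.05, 1 member was higher and 13 were lower, 20.3% of members against 13% of all genes. With a mean above 10 these shares were 31.2% of members and 21.6% of the other genes. The median of the 39 bright members was -0.08 on the log2 scale, against -0.01 for all genes, and the other 30 members had a median of -0.07. Below 0 were 37 of the 39 values, against 11546 of all 22180 genes and 55 of the 134 other genes above 10. The 39 values come from the same arrays and are not independent.

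Rps19, a small subunit protein whose mutation causes Diamond-Blackfan anaemia in people, had the lowest adjusted p of the 3. Its log2 signal was 11.12, 10.90, 11.09, 10.72 and 10.99 in day 30 int cells, against 11.49, 11.54, 11.36, 11.33 and 11.31 in day 30 none cells. All int arrays lay below all none arrays. It fell by 0.44 ± 0.08 (log2, SE; adjusted p = 0.000188), and the linear signal fell by 26.4%. On day 10 its values were 10.99, 10.94, 10.72 and 10.90 in int cells, against 11.04, 11.11, 11.06, 11.34 and 11.32 in none cells, again without overlap. That difference was -0.29 ± 0.08, and its adjusted p of 0.069 misses the threshold. The change of the effect between the days was -0.16 (95% interval -0.38 to 0.07), so a difference between the days was not detected.

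In off cells, which had the intermediate dose withdrawn on day 10, Rps19 gave 11.16, 11.02, 11.34, 11.38 and 11.30. These values overlap both the none and the int arrays of day 30. Against int cells the difference was 0.28 ± 0.08 with an adjusted p of 0.118, and against none cells it was -0.17 with an adjusted p of 0.405. Low cells gave 11.20, 11.40, 11.25, 11.24 and 11.22, lower than none cells in the mean (11.26 ± 0.08 against 11.41 ± 0.10, SD, n = 5 each) but not called.

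Rpl7a, a large subunit protein, gave 11.60, 11.46, 11.46, 11.43 and 11.58 in day 30 int cells, against 11.94, 11.90, 11.69, 11.72 and 11.77 in none cells. The groups did not overlap, and the signal fell by 0.30 ± 0.07 (log2; adjusted p = 0.00509). Off cells overlapped both groups at 11.57, 11.52, 11.78, 11.78 and 11.70. On day 10 the same difference was -0.15 with an adjusted p of 0.511.

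Rps12, of the small subunit, gave 12.17, 12.15, 12.16, 12.14 and 12.21 in int cells, against 12.33, 12.29, 12.25, 12.28 and 12.34 in none cells on day 30. Here too the groups did not overlap, at a small difference of -0.13 (adjusted p = 0.0335). Off cells were at 12.12 to 12.21, like int cells and below all none arrays, but off against none was not called for any member.

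Other probe sets of these genes were compared where the array held them. Rps19 had 2 probe sets with identical values and another, dim one at a mean of 4.29, which differed by 0.06 between int and none cells on day 30. Rpl7a had a second bright probe set at -0.30 and a dim one at -0.22, and for Rps12 the others gave -0.20 and, on 6 identical rows, -0.12. When all probe sets of a gene were averaged, none of the 3 was called (limma adjusted p = 0.128 for Rps19, 0.229 for Rpl7a and 0.144 for Rps12), and 1 other member was, Rpl29, which fell by 1.09 (adjusted p = 0.00233). Rps12 lost its call under 13 of 18 alternatives, this one included. Rps19 and Rpl7a kept theirs under the other 17 alternatives each, leaving out any 1 array included.

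Day 10 int against none gave no called member in either direction, with 1.24% of all genes called, 0.784% as higher and 0.460% as lower. At an unadjusted p under 0.05, 1 member was higher and 7 were lower in int cells, 11.6% of members against 8.88% of all genes. The bright median was -0.07, against -0.01 over all genes. For 43 of the 69 members the 95% interval of the difference lay within 0.5 of 0 on the log2 scale. Rps19 was called as lower under 3 alternatives (quantile scaling, array weights, dim genes left out), and Rpl7a under the mean of probe sets. The median 95% interval of a bright member reached 0.17 to either side.

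**Figure D3:**
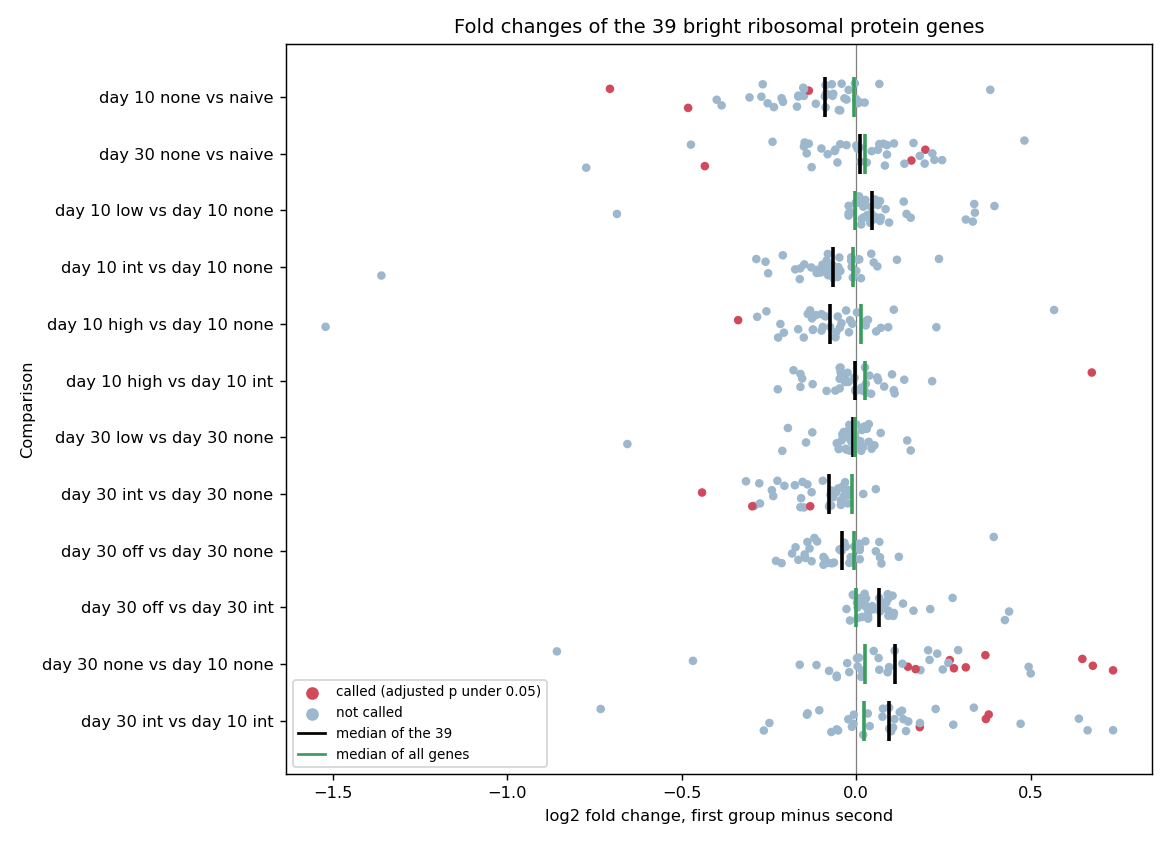
Log2 fold change of each of the 39 bright members in 12 comparisons (points, red where called), first group minus second, with the median of the 39 (black line) and of all genes (green line). Between int and none on day 30 nearly all points lie left of 0, and between day 30 and day 10 none cells most lie right of 0.

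Stopping the antigen on day 10 was asked with the off group. Against none cells no member was called in off cells, with 0.266% of all genes called, 0.194% as higher and 0.0721% as lower. At an unadjusted p under 0.05 no member was higher and 8 were lower, 11.6% of members against 11.1% of all genes. Against int cells no member was called in off cells either, with 0.464% of all genes called, 0.266% as higher and 0.198% as lower. There 4 members were higher and 2 lower at an unadjusted p under 0.05, 8.7% of members against 7.58% of all genes. The bright median was -0.04 against none and 0.07 against int. Above 0 against int cells were 35 of the 39 bright members, 11016 of all 22180 genes and 66 of the 134 other genes above 10. The 39 values come from the same arrays and are not independent. Without off array 2, which had the lowest family mean of its group, Rps19 was called as higher in off than in int cells (0.33, adjusted p = 0.0288). Both comparisons share the off arrays. Of 13 myeloid and dendritic cell markers 2 were called as higher in off than in none cells and 0 as lower. Among the 2 was S100a8, a neutrophil gene, higher by 3.44 (6.90 against 3.46). Of 11 B cell and plasma cell markers 1 was called there, Cd22, higher by 1.67. Against int cells 1 of the 13 was called, Tyrobp, higher by 1.91, and 0 of the 11. The part of these markers in the values was not tested.

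High antigen in cMCC mice gave 2 members higher and 1 lower than none cells on day 10, where 5.25% of all genes were called, 2.77% as higher and 2.48% as lower. With a mean above 10, 1 of 32 members (3.12%) and 19 of 134 other genes (14.2%) were called. Rps27l, a paralogue of Rps27 known as a p53 target, gave 6.56, 6.07, 6.31 and 5.62 in high cells, against 5.26, 4.8, 5.17, 5.67 and 5.60 in none cells. In 3 of the 4 high arrays it exceeded every none array. It rose by 0.84 ± 0.24 (log2; adjusted p = 0.0228), 1.79-fold, and its signal of 5.65 on average makes it a dim member. The call was lost without high 2, high 4, none 2 or none 3 (adjusted p of up to 0.12).

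Rpl27a, a large subunit protein with a dim probe set, gave 3.79, 3.72, 3.58 and 3.43 in high cells, against 2.75, 2.91, 3.05, 3.11 and 2.97 in none cells. It rose by 0.67 ± 0.14 (adjusted p = 0.000848) with no overlap. Day 10 none cells had the lowest group mean of Rpl27a (2.96), and high cells (3.63) lay below naive (3.71) and day 30 none cells (3.78). Rps4x, the X-linked form of a small subunit protein, gave 10.15, 10.96, 10.94 and 10.70 in high cells, against 11.05, 11.01, 10.98, 10.96 and 11.13 in none cells. It fell by 0.34 ± 0.09 (adjusted p = 0.0197), and the lowest array was high 2. Without high 2 the count of called members was 1, Rpl27a, and Rps4x lost its call, as it did without none 5, under median centring and without the variance trend. Without all 4 arrays that stand apart Rps4x differed by -0.18 (adjusted p = 0.235).

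Rps19bp1, whose product binds Rps19 and helps to activate Sirt1, gave 6.66, 6.77, 7.57 and 6.27 in high cells, against 5.54, 6.02, 5.96, 6.09 and 6.22 in none cells. All high arrays were above all none arrays, but its difference of 0.85 had an adjusted p of 0.179. Thy1, by which the cells were sorted, fell by 1.07 on the log2 scale in high cells (10.12, against 11.20 in none cells), and its part in these results was not tested. High against int cells gave 1 member higher and none lower, with 2.99% of all genes called, 1.40% as higher and 1.59% as lower. This was Rpl37a at 10.42, 9.92, 9.90 and 9.26 in high cells, against 8.77, 8.92, 9.61 and 9.50 in int cells (0.67 ± 0.20, adjusted p = 0.0442), and it was not called without int 1, int 2, high 2, high 3 or high 4. Without high 2, its highest array, the difference was 0.49 (adjusted p = 0.272), and without the 4 arrays that stand apart it was 0.49 as well (adjusted p = 0.229). In both cases Rpl13 was called in its place as lower in high cells (-0.16, adjusted p = 0.042 and 0.0398). The count was 0 without int 1, int 2, high 3 or high 4. With a mean above 10, 0 of 32 members and 18 of 134 other genes (13.4%) were called between high and int cells.

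**Figure D4:**
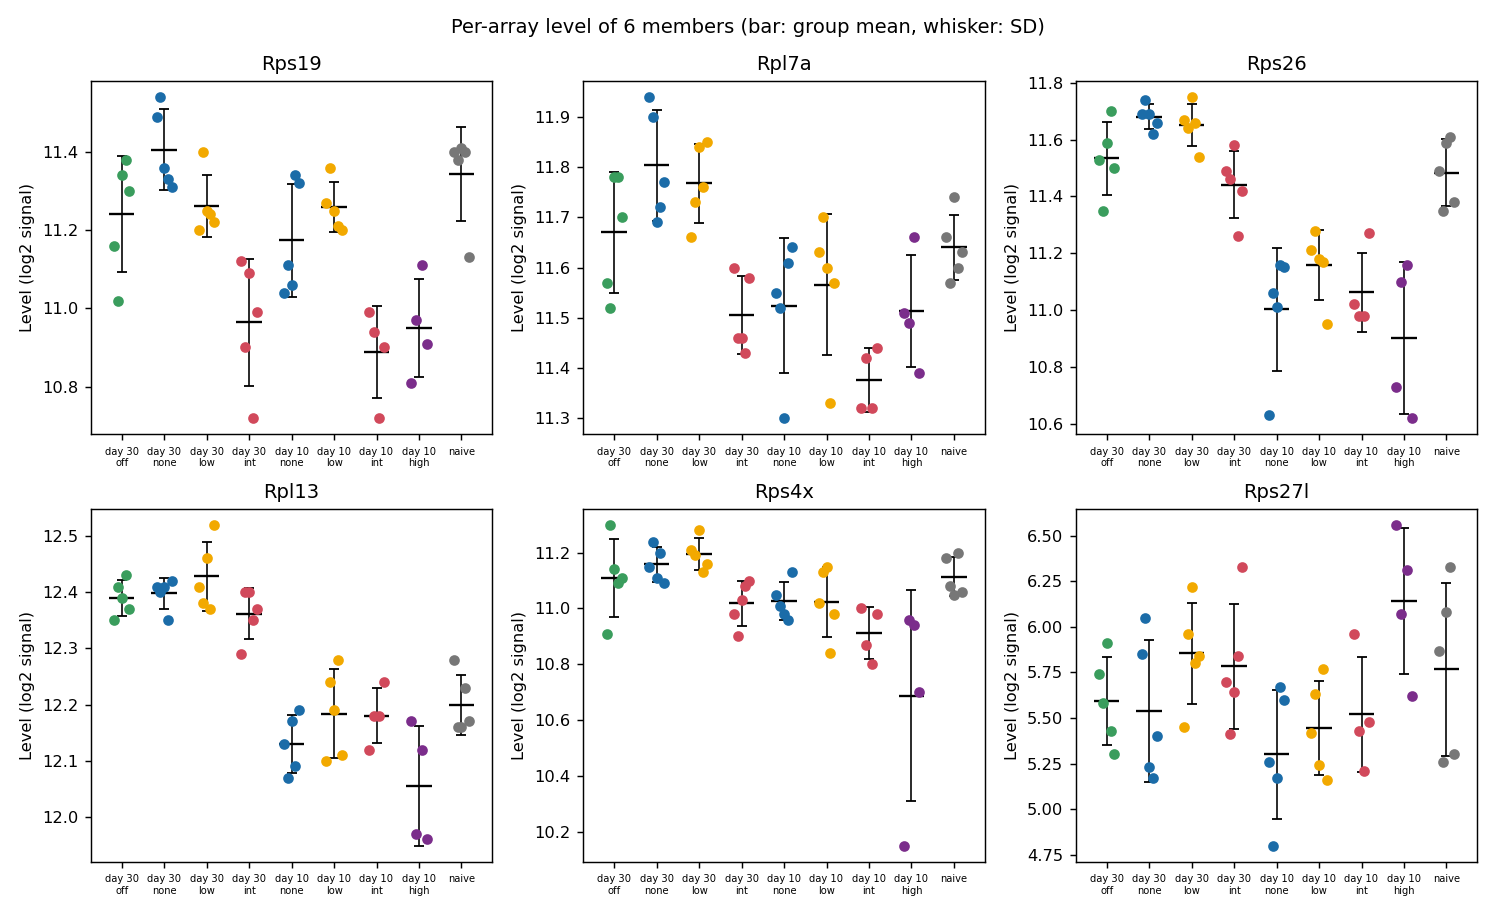
Log2 signal of 6 members on each of the 43 arrays by group, with group means (bars) and SD (whiskers). On day 30 Rps19 and Rpl7a lie lower in int than in none cells. In none cells Rps26 and Rpl13 lie higher on day 30 than on day 10. Rps4x is lowest on a high array, at 10.15, and the Rps27l high arrays, at 5.62 to 6.56, overlap other groups.

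Low against none cells on day 10 gave no called member, with 0.00451% of all genes called. At an unadjusted p under 0.05, 4 members were higher and none was lower, 5.8% of members against 3.43% of all genes. For 46 members the 95% interval stayed within 0.5 of 0. On day 30, 1 member rose in low cells, where 0.654% of all genes were called, 0.388% as higher and 0.266% as lower. This was Rps16, a small subunit protein, on a dim probe set at 3.77, 4.28, 2.92, 4.51 and 3.52 in low cells, against 2.72, 2.51, 2.85, 2.96 and 2.65 in none cells. It rose by 1.06 ± 0.22 (adjusted p = 0.00808), its low arrays spread widely, and 1 of them lay within the none range. No difference of the int or low effect between the days was called for any member, with 0.0902% of all genes called for int (0.0451% in each direction) and 0.0316% for low (0.0180% positive, 0.0135% negative). At an unadjusted p under 0.05 the int interaction was positive in 2 members and negative in 5, and the low interaction in 2 and 3. For int these were 10.1% of members against 6.7% of all genes, and for low 7.25% against 5.45%.

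Day 30 against day 10 in none cells gave the most calls of the 12 comparisons. Here 10 members rose and none fell, where 3.43% of all genes were called, 1.51% as higher and 1.93% as lower. All genes include many dim ones, with a median level of 3.39. Among members with a mean above 10, 7 of 32 were called (21.9%), all as higher. Among the 134 other genes above 10, 27 were called (20.1%), 12 as higher and 15 as lower. The share called was thus close to that of other bright genes, and the direction differed. The bright median was 0.11, against 0.02 over all genes. At an unadjusted p under 0.05, 21 members were higher and 2 lower, 33.3% of members against 18.1% of all genes. With a mean above 10 these shares were 50% of the 32 members and 44.8% of the 134 other genes. As stated, the day cannot be told apart from the series of sorts. The members that rose were Rpl7a, Rpl13, Rpl14, Rpl19, Rpl23a, Rpl27a, Rpl37a and Rpl41 of the large subunit and Rps25 and Rps26 of the small subunit.

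Rps26, a small subunit protein that contacts the messenger upstream of the start codon, gave 11.69, 11.74, 11.69, 11.62 and 11.66 in day 30 none cells, against 10.63, 11.06, 11.01, 11.16 and 11.15 in day 10 none cells. Every day 30 array exceeded every day 10 array. It rose by 0.68 ± 0.09 (log2; adjusted p = 1.11e-05), 1.60-fold, and the difference on its second probe set was 1.02. In int cells it gave 11.49, 11.46, 11.58, 11.26 and 11.42 on day 30, against 11.02, 10.98, 10.98 and 11.27 on day 10, a rise of 0.38 ± 0.09 (adjusted p = 0.0381). The interaction of day and int antigen for Rps26 was -0.30 (95% interval -0.56 to -0.04, adjusted p = 0.685), which was not called.

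Rpl13, of the large subunit, gave 12.41, 12.40, 12.41, 12.35 and 12.42 in day 30 none cells, against 12.13, 12.07, 12.17, 12.09 and 12.19 in day 10 none cells. It rose by 0.27 ± 0.04 (adjusted p = 0.000124) with no overlap, and its second probe set gave 0.21. Rpl23a, at the tunnel exit of the large subunit, gave 11.80, 12.01, 11.94, 11.74 and 11.70 on day 30, against 11.34, 11.61, 11.23, 11.58 and 11.58 on day 10, and rose by 0.37 ± 0.08 (adjusted p = 0.00367). These groups did not overlap either. The rise of Rpl37a was 0.74 (adjusted p = 0.0131), of Rps25 0.65 (0.0376) and of Rpl14 0.31 (0.0359). On its dim probe set, near the array medians, Rpl27a rose by 0.82 (adjusted p = 0.000259). Rpl7a rose by 0.28 (adjusted p = 0.0121), Rpl41 by 0.17 (0.00993) and Rpl19 by 0.15 (0.0243).

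Without day 10 none 1, the array with the lowest Rps26 and family mean of its group, 5 members were called in this comparison, and without day 10 none 3 there were 6. Without the 4 arrays that stand apart, 13 were called, all 10 among them. In int cells 3 members rose and none fell between the days, with 0.712% of all genes called (0.347% as higher, 0.365% as lower): Rps26, Rpl13 (0.18, adjusted p = 0.0274) and Rpl23a (0.37, adjusted p = 0.0117). All 3 had also risen in none cells. The count was 1 without int 1 or int 2 of day 10 or int 2, int 3 or int 5 of day 30, and 0 without int 3 of day 10. With a mean above 10, 3 of 32 members (9.38%) and 16 of 134 other genes (11.9%) were called between the days in int cells. Of 13 myeloid and dendritic cell markers 2 fell between day 30 and day 10 none cells and none rose, and S100a8 fell by 3.12 (3.46 on day 30 and 6.58 on day 10). The mean of the 13 lay between 3.01 and 3.61 on day 30 none arrays and between 3.47 and 4.19 on day 10 none arrays, and its part in the result was not tested.

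Against naive cells, day 10 none cells had no member higher and 4 lower, where 3.30% of all genes were called, 1.90% as higher and 1.41% as lower. With a mean above 10, 2 of 32 members (6.25%) and 20 of 134 other genes (14.9%) were called. Rps26 fell by 0.48 ± 0.09 (adjusted p = 0.000324), with naive arrays at 11.49, 11.35, 11.59, 11.61 and 11.38, above all day 10 none arrays. Rpl27a, on its dim probe set near the array medians, fell by 0.75 ± 0.13 (adjusted p = 0.000117). Rpl37a fell by 0.71 (adjusted p = 0.0117) and Rps12 by 0.14 (0.0196). The bright median was -0.09, against -0.01 over all genes. Of 11 B cell and plasma cell markers 3 fell in the same comparison and none rose, and Cd79a fell by 2.12. Of 13 myeloid and dendritic cell markers 2 fell and none rose, and H2-Ab1 fell by 2.01. The mean of the B cell list lay between 3.05 and 3.21 on day 10 none arrays and between 3.12 and 4.50 on naive arrays. That of the myeloid list lay between 3.47 and 4.19 on day 10 none and between 3.55 and 5.88 on naive arrays. The part of these markers in the result was not tested. Leaving out day 10 none 4 gave 8 members, all lower; leaving out the 4 arrays that stand apart gave 3, Rps12 being lost (-0.14, adjusted p = 0.0876).

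Day 30 none cells had 2 members higher and 3 lower than naive cells, where 4.33% of all genes were called, 1.98% as higher and 2.35% as lower. With a mean above 10, 3 of 32 members (9.38%) and 27 of 134 other genes (20.1%) were called. Rpl13 rose by 0.20 (adjusted p = 0.00153), with naive arrays at 12.28, 12.16, 12.16, 12.23 and 12.17, below all day 30 none arrays, and Rpl19 by 0.16 (0.00971). Rpl10a, a large subunit protein, gave 10.87, 10.83, 10.51, 10.74 and 10.39 in day 30 none cells, against 11.12, 10.86, 11.29, 11.14 and 11.10 in naive cells, and fell by 0.43 (adjusted p = 0.0212). The dim members Rpl34 and Rps14 fell by 1.61 (0.0498) and 0.76 (0.0281). Without the 4 arrays Rpl13 and Rpl19 remained called, and Rpl10a, Rpl34 and Rps14 were not (adjusted p = 0.123, 0.0748 and 0.114). The count was 3 without day 30 none 3 or without naive 1, 3 or 4, and 2 without day 30 none 5. Against naive cells 7 of the 13 myeloid markers fell in day 30 none cells and none rose. Of 11 B cell markers 2 fell, and Cd79a fell by 1.84 (3.70 in day 30 none and 5.54 in naive cells). The mean of the myeloid list was 3.01 to 3.61 on day 30 none arrays and 3.55 to 5.88 on naive arrays, and its part in the 3 lost calls was not tested.

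Among members with special roles no call was made in the 12 comparisons in Rpl22, Rpl22l1, Rpl5, Rpl11, Rps6, Rpsa, Rplp0, Rplp1, Rplp2, Rpl38, Rpl39l, Rpl3l, Rpl7l1, Rps4l or Rps19bp1. Rpl22, which early T cell development in mice requires, had group means between 6.32 ± 0.05 in day 10 int and 6.59 ± 0.06 in naive cells (SD, n = 4 and 5), and its differences ran from -0.20 to 0.10 (lowest adjusted p = 0.653). Its paralogue Rpl22l1 lay at 3.36 on average, on a dim probe set. Rps6, the substrate of the S6 kinases downstream of mTOR, had differences from -0.14 to 0.07 (lowest adjusted p = 0.182). Rpl5 and Rpl11, which bind Mdm2 when ribosome assembly is disturbed, were dim and differed by -0.44 to 0.48 and -0.33 to 0.36. Rplp0, the base of the P stalk that recruits elongation factors, spread widely within groups (8.09 ± 1.54 in day 10 high cells, SD, n = 4), whereas its partner Rplp1 differed by -0.16 to 0.05.

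Genes around the family were counted from lists of known translation and growth genes. Fau, which encodes a small subunit protein outside the symbol rule, had group means of 11.71 to 11.86 and was called in none of the comparisons. Of 14 other TOP messenger genes at most 2 were called in any comparison. Between day 30 and day 10 none cells their median was 0.16, with 6 higher and 1 lower at an unadjusted p under 0.05. Of all genes 18.1% lay under that unadjusted p in this comparison. There Eef1d, a subunit of the exchange factor of elongation, rose by 0.50 (adjusted p = 0.0448), and Eef2, the factor that moves the ribosome along, fell by 0.33 (adjusted p = 0.0274). Of 25 translation factors 1 rose and 4 fell between these days, and among the 4 were the helicase of initiation and its cofactor. Eif4a1, the helicase, fell by 1.07 (adjusted p = 0.0164) and Eif4h, whose product stimulates that helicase, fell by 1.39 (adjusted p = 0.00651). Of 59 ribosome biogenesis genes at most 2 were called in any comparison. Over the 12 comparisons the share of all genes called ran from 0.00451% to 5.25%. Mitochondrial ribosomal protein genes, which serve the separate ribosome of mitochondria, rose in 10 of 71 between day 30 and day 10 none cells, and none fell (median 0.29, against 0.11 for the bright cytosolic members). Of all genes 3.43% were called in that comparison, 1.51% as higher and 1.93% as lower, with a median of 0.02.

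**Figure D5:**
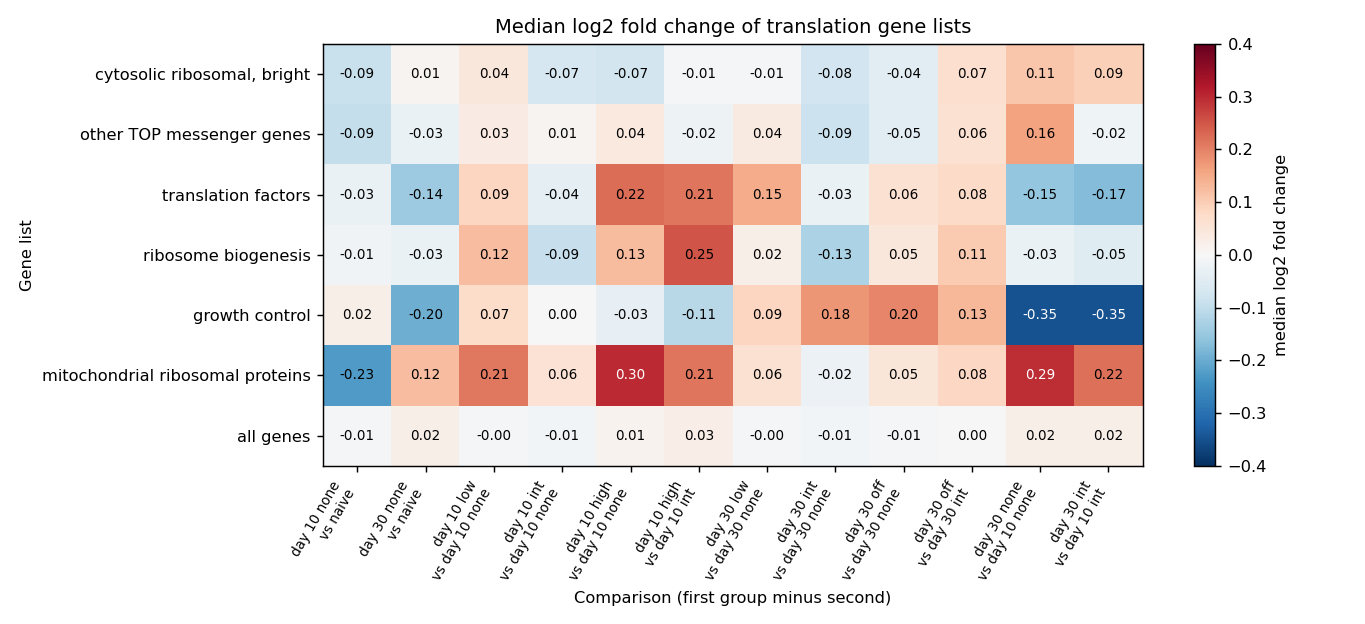
Median log2 fold change, first group minus second, of the 39 bright cytosolic members, 5 related gene lists and all genes in 12 comparisons, with colour and printed value for each. Bright cytosolic members stay between -0.09 and 0.11, while mitochondrial ribosomal proteins reach 0.30 for high against none and 0.29 for day 30 against day 10 none cells.

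Myc was called in 3 of the 12 comparisons, each with int cells. It gave 5.09, 5.85, 5.74, 5.16 and 5.23 in day 30 int cells, against 7.09, 6.96, 7.11, 6.91 and 6.41 in none cells, and fell by 1.48 ± 0.25 (adjusted p = 0.000158) with no overlap. On day 10 it gave 5.96, 6.03, 6.32 and 5.38 in int cells, against 6.99, 7.46, 7.40, 6.48 and 7.0 in none cells, and fell by 1.14 ± 0.27 (adjusted p = 0.0145). Off cells on day 30 (6.22, 5.84, 6.28, 7.75 and 6.85) were higher than int cells by 1.17 ± 0.25 (adjusted p = 0.0136). The other comparisons with int cells did not pass, at 0.66 for high against int (adjusted p = 0.277) and -0.51 for day 30 against day 10 int cells (adjusted p = 0.48). Sesn3, an inhibitor of mTORC1 signalling, rose in int cells by 1.05 on day 10 (adjusted p = 0.000252) and by 0.79 on day 30 (0.00386). It was also higher in high than in none cells, by 0.77 (limma adjusted p = 0.00472). Off against int cells gave -0.71 (0.0338) and day 30 none against naive cells -0.76 (0.00418). Naive cells, at 9.14, were as high in Sesn3 as day 30 int cells at 9.17. Of the 25 measured growth control genes, 1 rose and 1 fell in int against none cells on each day, these being Sesn3 and Myc. Of all genes 1.24% were called there on day 10 and 2.21% on day 30. Larp1, which binds TOP messengers, rose by 0.90 in day 10 none against naive cells (adjusted p = 5.36e-05) and fell by 0.78 in high against none cells (adjusted p = 0.000775).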

How the data were processed

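RNA of sorted transferred CD4 T cells was amplified and read on 43 single-colour arrays, per the labels' protocols. The deposited values are log2 signals between 1.46 and 13.87; their range is what shows base 2, and how the authors corrected background, summarized and normalized is not given in the sources used here. Sorting was for CD45.1, CD90.2 and CD4, and small amounts of RNA were amplified with Ovation Pico WTA V2, per the labels' protocols. Any saturation of bright probe sets, which the deposited values do not record, would narrow their differences.

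Each of 22180 genes was taken from its single-symbol probe set with the highest mean. Group means of 9 groups were fitted together with limma 3.58.1 in R 4.3.3 (eBayes with a variance trend), with Benjamini-Hochberg adjustment over all genes and a threshold of 0.05; SE and 95% intervals come from this fit, SD from the arrays of a group. Only the limma fit was tested on simulated arrays, with changes planted between day 10 int and none cells. The simulated noise was independent between genes and arrays, unlike that of real arrays, and the other steps were not tested in this way. Figures were drawn with Python 3.11.15, pandas 2.3.3 and matplotlib 3.10.9. Members and lists were chosen with earlier results of these data known. The named genes were a list with special roles, the called members with the highest and lowest fold changes (up to 8 each way), and the 5 members highest, lowest and widest in level. The bright limit of 7 was set after the levels were seen, with 10 as an added alternative. Alternatives were quantile scaling, median centring, no variance trend, array weights, dim genes left out, the mean of probe sets, a replicate block, 4 arrays left out together and each array left out in turn. Deviations of samples with the same number from their group means correlated between -0.138 and 0.117, so the numbers were not taken as pairs.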

Additional observations from a re-analysis of the deposited data

Results flagged for a closer look

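Single arrays stood apart from the rest of their group in 5 of 62 groups of values, by Dixon's criterion for the gap of the extreme array. The 62 were those of called members and of the mean of the bright members, and all 5 were of called members. Chance alone marks about 1 in 20 groups. In day 30 none cells array 4 was the low one for Rpl13 (12.35, the others 12.40 to 12.42) and for Rpl19 (12.14, the others 12.24 to 12.26). In day 10 none cells array 2 was low for Rps25 (8.17, the others 8.87 to 9.09) and array 1 was low for Rps26 (10.63, the others 11.01 to 11.16). In day 10 int cells array 4 was high for Rps26 (11.27, the others 10.98 to 11.02). The cause was not tested. No member had an interaction of day with int or low antigen that passed the threshold (limma), as given with the unadjusted counts above.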

How the results depend on the processing

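Of 30 calls of 18 members, 8 were kept under every alternative run, 22 were lost under at least 1, and none reversed; the cause was not tested unless stated. The 8 were Rpl27a in 3 comparisons, Rps26 for day 10 none against naive and day 30 against day 10 none, Rpl13 and Rpl23a for day 30 against day 10 none, and Rps16 for low against none on day 30, where leaving out dim genes gave 0 calls because Rps16 was no longer tested. All 3 calls of Rpl27a share the same day 10 none arrays, where its group mean was lowest. Rpl27a (group means 2.96 to 3.78) and Rps16 are dim probe sets with signals near the array medians of 3.28 to 3.44. Being kept under every alternative does not make these signals less weak. For day 30 none against naive, 5 calls became 2 without the variance trend, 3 with array weights, 3 with the mean of probe sets and 2 without the 4 arrays. For int against none on day 10, 0 became 1 under quantile scaling, array weights, dim genes left out and the mean of probe sets. On day 30 the 3 calls became 6 with dim genes left out and 5 without the 4 arrays, each including the 3, and 1 with the mean of probe sets, which was Rpl29 and none of the 3. For high against none, 3 became 1 without the 4 arrays; for high against int, 1 became 2 under quantile scaling and 0 under median centring, no variance trend and array weights; without the 4 arrays the 1 call was Rpl13 and not Rpl37a. For off against int, 0 became 1 under quantile scaling. For day 30 against day 10, 10 became 6 in none cells without the variance trend, and 3 became 0 in int cells under median centring and without the variance trend.

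With each array left out in turn, calls ranged from 3 to 8 for day 10 none against naive, 2 to 5 for day 30 none against naive, 1 to 4 for high against none, 0 to 1 for high against int, 2 to 4 for int against none on day 30, 0 to 1 for off against int, 5 to 13 for day 30 against day 10 none cells and 0 to 3 for int cells. The replicate block gave 12 calls for day 30 against day 10 none cells, including the 10, and the same counts elsewhere. Same-numbered samples correlated by at most 0.117, and for high against int all 3 pairs, between 0.0315 and 0.0955, correlated best with their own number. The bright median kept its sign under every alternative except for high against int (same sign in 10 of 17 settings) and low against none on day 30 (15 of 19). Its size moved with the scaling. For int against none on day 10 it went from -0.068 to between -0.037 and -0.0125. For off against none it went from -0.042 to between -0.049 and -0.008. Scalings moved the median of all genes by at most 0.06. Dim probe sets limit what can be seen for 30 members.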
